A study of Homo sapiens with 12 samples.

Results

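The nuclear genes of the respiratory chain and ATP synthase were described across 12 RNA-seq libraries of 2 human cancer cell lines. Members were taken by symbol: protein-coding genes whose names begin with NDUFA, NDUFB, NDUFC, NDUFS or NDUFV and a digit (complex I), SDHA to SDHD (complex II), UQCR (complex III), COX4 to COX8 (complex IV) or ATP5 (complex V). The rule gave 88 of 27788 counted symbols, 39 in complex I, 4 in complex II, 9 in complex III, 17 in complex IV and 19 in complex V. Another 4 matching symbols, NDUFA6-AS1, NDUFB2-AS1, NDUFV2-AS1 and UQCRBP1, are not protein-coding and were left out.

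HCT116 cells derive from colorectal cancer, and U-87 MG cells from a glioblastoma. In both, Cas9 was delivered by lentivirus with blasticidin selection, a crRNA against exon 2 of GSTO1 was transfected with tracrRNA, and picked colonies were screened for loss of GSTO1, an omega-class glutathione transferase. The groups were GSTO1 KO and wild type (WT) of each line, with 3 libraries each, and no drug treatment is named in the labels. A control crRNA without a target is described, but whether the WT cells had received it or Cas9, and the number of colonies behind a KO group, are not given by the labels. The KO groups may therefore each stand for few clones, and what a colony carried besides the GSTO1 mutation cannot be told apart from the mutation. Nothing in the labels ties the 3 libraries of a group to separate cultures, so each p-value is relative to a spread that may be technical.

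The respiratory chain sits in the inner mitochondrial membrane. Complex I takes electrons from NADH and complex II takes them from succinate, both pass them to ubiquinone, complex III passes them on to cytochrome c, and complex IV reduces oxygen. Complexes I, III and IV pump protons, and complex V, the ATP synthase, uses the proton gradient to make ATP. Complex II is encoded in the nucleus alone, whereas the other complexes also hold subunits encoded by mitochondrial DNA, which are not analysed here.

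Promoters of these genes are known for sites of NRF1, of ETS-family factors such as GABP, and of YY1, so these were looked for where the members' transcripts moved together. In each complex, the member printed is the gene with the lowest adjusted p among those that were lower in HCT116 KO cells and held a match in the 120 bases before the transcription start. The sequences are from RefSeq on GRCh38.p14, run 5′ to 3′ on the strand of the gene and end at the base before the start. Capitals mark the NRF1 palindrome GCGCNTGCGC, the ETS core CCGGAAG and the YY1 core AAGATGG, on either strand.
NDUFA9: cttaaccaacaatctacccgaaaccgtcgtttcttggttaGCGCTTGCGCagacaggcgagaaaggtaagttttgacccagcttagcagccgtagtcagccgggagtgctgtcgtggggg
SDHD: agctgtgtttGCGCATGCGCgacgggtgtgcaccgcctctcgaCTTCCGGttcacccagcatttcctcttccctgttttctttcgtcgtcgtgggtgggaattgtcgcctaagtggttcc
UQCRFS1: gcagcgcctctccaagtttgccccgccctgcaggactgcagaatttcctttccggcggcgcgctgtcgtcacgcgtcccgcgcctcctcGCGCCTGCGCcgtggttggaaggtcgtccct
COX8A: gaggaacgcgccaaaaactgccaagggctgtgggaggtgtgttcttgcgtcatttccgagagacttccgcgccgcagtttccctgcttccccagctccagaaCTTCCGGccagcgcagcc
ATP5J: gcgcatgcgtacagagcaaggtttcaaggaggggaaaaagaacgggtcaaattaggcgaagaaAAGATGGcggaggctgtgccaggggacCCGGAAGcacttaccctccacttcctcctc
These stretches lie at chr12:4648994-4649113 on the plus strand (NDUFA9), chr11:112086753-112086872 on the plus strand (SDHD), chr19:29213152-29213271 on the minus strand (UQCRFS1), chr11:63974500-63974619 on the plus strand (COX8A) and chr21:25735055-25735174 on the minus strand (ATP5J). The first 3 hold an NRF1 match, that of SDHD together with an ETS match, COX8A holds an ETS match, and ATP5J holds an ETS and a YY1 match.

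Promoters from 250 bases before to 50 after the start were found for 70 of the 88 members. On either strand, 16 of the 70 (22.9%) held the NRF1 palindrome, against 8.58% of 15843 promoters of protein-coding genes. The ETS core was in 19 (27.1%) against 14.2%, and the YY1 core in 16 (22.9%) against 6.40%. The ETS core ends with the letters that begin the YY1 core, so a match of each can overlap. Among members lower in HCT116 KO cells, 9 of 40 held the NRF1 palindrome, 9 the ETS core and 12 the YY1 core. Of the 23 tested members that did not pass, 6 held the first, 10 the second and 3 the third. These shares are descriptions of letters in a window, and no binding was measured.

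Library totals ranged from 17814142 to 28097179 counts. GSTO1 itself stood at 13.8 to 16.1 CPM (counts scaled to library size) in HCT116 KO libraries against 58.2 to 61.4 in WT, and at 25.1 to 26.7 against 123 to 151 in U-87 MG. HCT116 libraries expressed epithelial markers (7 of 10 over 1 FPKM, summed level 2621 to 2904 CPM) with CDX1 and VIL1 under 0.1 CPM. U-87 MG libraries expressed 6 of 10 markers of glia and mesenchyme (33700 to 36470 CPM in sum), FN1 (21380 CPM in WT) and VIM (9532 CPM in WT) above all. The glial markers S100B and GFAP were under 0.1 CPM there. SOX2 was at 0 and 0.138 CPM and OLIG2 at 0.916 and 0.464 CPM in WT and KO. HCT116 libraries had 5 of these 10 over 1 FPKM, at 674 to 1251 CPM in sum, with CD44 at 620 CPM in WT. Of 6 leukocyte markers only CD68 was abundant, at 403 CPM in WT and 623 CPM in KO U-87 MG libraries, and CD3E was at or near 0. Among U-87 MG WT libraries, replicate 3 held the smallest share of counts in the members, 0.906% against 0.979% and 0.995%. Counts of members, complexes and gene lists in that line are therefore also given without it. The ribosomal RNA gene RNR2 took 1.48 ± 0.101% of counts in HCT116 KO libraries against 1.02 ± 0.0399% in WT and 0.429 ± 0.00848% against 0.280 ± 0.0374% in U-87 MG (SD, n = 3), and its part in the results below was not tested.

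Levels in WT cells differed by complex and were highest in complex IV. Levels between genes are compared per length, as the deposited FPKM (fragments scaled by gene length and depth), and each value is a mean of 3 libraries. Of the 88 members, 78 were over 1 FPKM in WT cells of HCT116 and 78 in those of U-87 MG. Their median in HCT116 was 67.3 FPKM for complex I, 63.3 for complex II, 87.6 for complex III, 287 for complex IV and 172 for complex V. In U-87 MG it was 90.3, 34.8, 89.7, 415 and 187 FPKM in the same order. Complex II thus had the lowest median of the 5 complexes in both lines.

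Within complex I, NDUFS5, an accessory subunit, was highest in HCT116 at 346 FPKM and NDUFB2 was highest in U-87 MG at 344 FPKM. NDUFA5 was the lowest subunit over 1 FPKM in both, at 10.2 and 14.9 FPKM. In complex II, SDHB, the iron-sulfur subunit, led at 132 and 126 FPKM. The lowest of its 4 members was SDHC, a membrane anchor, at 23.6 FPKM in HCT116, and SDHA, the flavoprotein that oxidises succinate, at 22.3 FPKM in U-87 MG. UQCRH, the hinge protein of complex III, led that complex at 314 and 265 FPKM.

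In complex IV, COX4I1 led in HCT116 at 500.2 FPKM and COX7C in U-87 MG at 633 FPKM. ATP5B, the catalytic beta subunit, was the highest member of all in HCT116 at 504 FPKM, next to COX4I1. ATP5E, the small epsilon subunit, was the highest in U-87 MG at 1062 FPKM. In HCT116 it stood at 448 FPKM. Ranks by FPKM and by CPM per kilobase had a Spearman correlation of 0.817 over 78 members in HCT116 WT and 0.822 in U-87 MG WT, and both scales share the same reads.

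**Figure D1:**
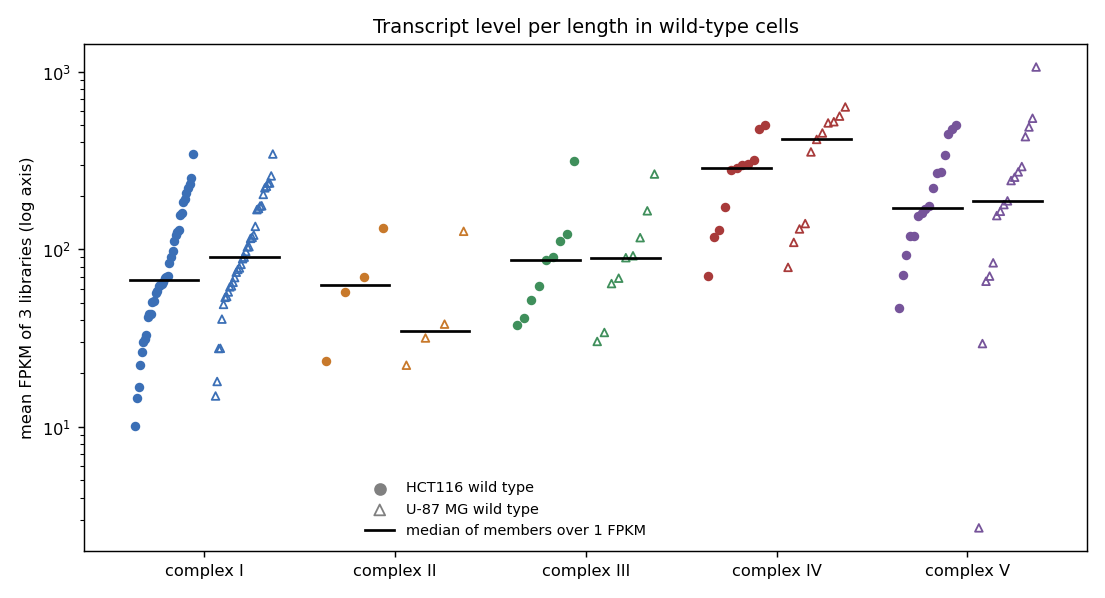
Mean FPKM of 3 WT libraries (log axis) for each member over 1 FPKM, by complex, with HCT116 as filled circles, U-87 MG as open triangles and the median of each set as a line. The medians of complex IV, 287 and 415 FPKM, are the highest in both lines, and those of complex II the lowest.

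Isoforms known from other tissues mostly had no counts. The ubiquitous form COX4I1 was abundant, while COX4I2, its counterpart best known from lung, had no counts in any library. The muscle forms COX6A2 and COX7A1 and the testis-linked forms COX7B2 and COX8C had no counts in any group either. A count of 0 in the 3 libraries of a group allows a level of up to 0.0413 to 0.0496 CPM, when 3 counts over the group are taken as the limit and counting error alone is covered. COX6B2, the testis form of the COX6B subunit, had 58 counts in HCT116 WT and 45 in HCT116 KO libraries but 0 in both U-87 MG groups. It was at least 19.5-fold higher in HCT116 WT than in U-87 MG WT, with the limit of 3 counts over the group, and could pass the count filter through HCT116 alone.

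Several symbols need care. NDUFA4 (now COXFA4) is counted here with complex I by its symbol, although structural work places it in complex IV. ATP5S and ATP5SL (now DMAC2L and DMAC2) are not subunits of the ATP synthase, and COX7A2L is a factor of supercomplexes, in which complexes III and IV associate. UQCRHL had 16 to 54 counts per group but 34.0 to 42.3 FPKM, and 53.7% of its stretches of 50 bases also occur elsewhere, UQCRH among the places. The readthrough gene NDUFC2-KCTD14 had no counts but 12.1 and 16.9 FPKM in HCT116 KO and WT. More than 5% of such stretches occurred in another locus for 18 members, and 16 members had another gene antisense to more than 5% of their exon bases. Whether counting used the strand is not given in the labels, so reads of antisense partners cannot be told apart.

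The first comparison asked how GSTO1 KO and WT HCT116 cells differed. Transcripts of complexes I, II, III and V were mostly a little lower in KO cells. Those counted with complex IV by symbol showed no common direction. With edgeR's quasi-likelihood test and Benjamini-Hochberg adjustment over all genes, 45 of 80 tested members fell at an adjusted p under 0.05 and 4 rose, beside 28.1% of all genes tested that fell and 29.2% that rose. The median log2 fold change (KO over WT) was -0.15 over the tested members and 0.01 over all genes, and 62 of the 80 (77.5%) were below 0, against 49.2% of all genes. The changes were small. At the 1.5-fold and 0.5 FPKM that the study asks of a call, no member fell and 1 rose, beside 4.07% and 7.82% of all genes.

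KO and WT libraries did not overlap for 47 members that were lower and 4 that were higher, beside 31.4% and 30.2% of all genes tested. The members took 0.856 ± 0.0122% of all counts in KO libraries and 0.928 ± 0.0156% in WT libraries (SD, n = 3). Of the 45, 35 stayed lower and past the adjusted p in all 13 alternative fits. Among the 48 tested members without overlap or sequence sharing above 5%, 28 fell and 2 rose. In bulk RNA, less RNA per cell and fewer cells with the RNA cannot be told apart, here and below.

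**Figure D2:**
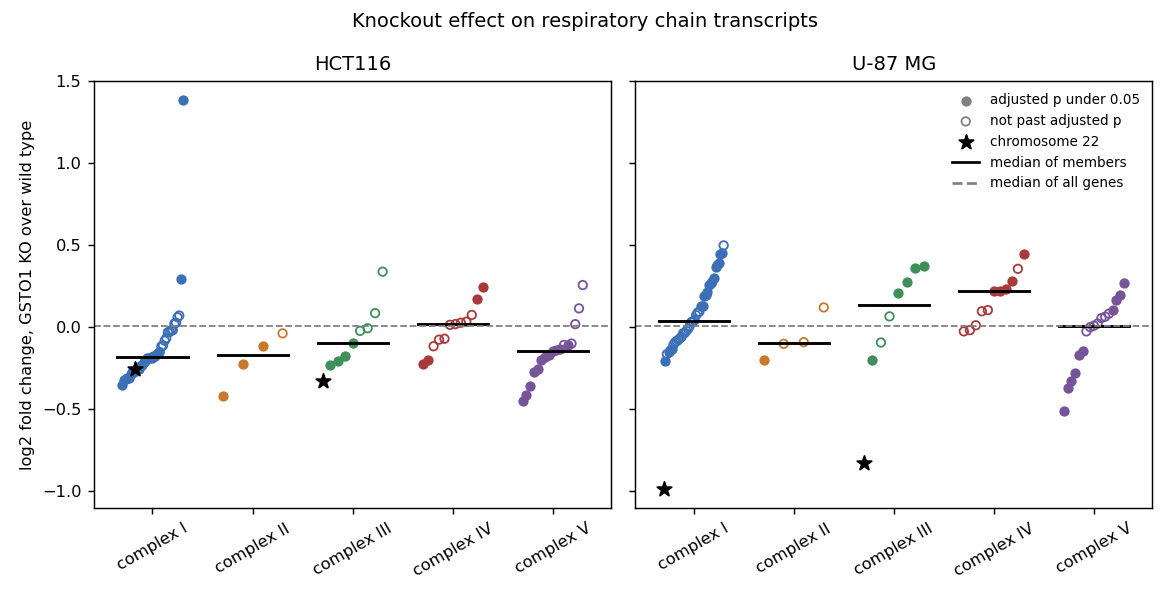
Log2 fold change, GSTO1 KO over WT, of each tested member by complex in HCT116 (left) and U-87 MG (right), with filled points past an adjusted p of 0.05, stars for the members on chromosome 22, solid lines for medians of members and a dashed line for the median of all genes. In HCT116 the medians of complexes I, II, III and V lie between -0.18 and -0.10, while in U-87 MG the stars at -0.99 and -0.83 stand below all other points.

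In complex I, 23 of 38 tested members fell and 2 rose, with a median of -0.18. They were spread over the functional parts of the enzyme. Of the 7 core subunits that carry its flavin and iron-sulfur centres, 5 fell, NDUFS1, NDUFS3 and NDUFV2 among them, while NDUFV1 did not pass (-0.12). Of the genes outside the core named NDUFA (with NDUFA4 and NDUFA4L2) and NDUFB, 8 of 14 and 6 of 11 fell. NDUFB10, an accessory subunit of the membrane arm, was at 140, 132 and 143 CPM in WT and at 110.0, 109.9 and 108.8 CPM in KO libraries. All KO libraries were below all WT libraries (log2 fold change -0.33, SE 0.05, edgeR adjusted p = 4.7e-06).

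NDUFB8, which lies in the same arm, went from 145.5, 139.7 and 142.4 CPM to 102.8, 112.4 and 116.7 CPM. It had the lowest fold change of complex I, again without overlap (-0.35, SE 0.05, edgeR adjusted p = 5.0e-06). HIF1AN lies antisense to part of its exons (16.3% of its exon bases). NDUFB9, also of the membrane arm, fell from 144 ± 6.15 to 115 ± 9.84 CPM (-0.31, SE 0.06). NDUFA9, which binds near the ubiquinone site and whose promoter is printed above, fell from 71.0 ± 0.595 to 59.1 ± 0.605 CPM (-0.25, SE 0.05, edgeR adjusted p = 2.1e-04).

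Both complex I members that rose have a symbol or locus to note. NDUFA4L2, a paralogue of NDUFA4 that is induced in hypoxia, was at 0.704, 0.548 and 0.358 CPM in WT and at 1.32, 1.09 and 1.77 CPM in KO libraries. The groups did not overlap, but the WT libraries held only 41 counts in all, and the call (1.38, SE 0.31, edgeR adjusted p = 7.9e-04) was not made by limma on log2(FPKM + 1), where no member was called. NDUFA4, by contrast, fell from 68.7 ± 4.28 to 59.7 ± 0.520 CPM (-0.19, SE 0.06). NDUFC2, a membrane-arm subunit, rose from 16.8 ± 1.35 to 20.5 ± 1.66 CPM (0.29, SE 0.08), and 18.6% of its exon bases lie in NDUFC2-KCTD14.

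In complex II, 3 of 4 members fell, with a median of -0.17. SDHB was at 150.2, 143.8 and 143.3 CPM in WT and at 113.3, 103.9 and 106.8 CPM in KO libraries. Its KO libraries lay at 74.1% of the WT mean, with a gap between the groups wider than the spread within either (-0.42, SE 0.05, edgeR adjusted p = 2.1e-07). SDHD, a membrane anchor, fell from 84.4 ± 2.21 to 71.7 ± 4.78 CPM (-0.22, SE 0.05), and 22.3% of its 50-base stretches occur elsewhere. SDHA fell least, from 165 ± 5.24 to 151 ± 3.73 CPM (-0.12, SE 0.04, edgeR adjusted p = 0.028). It lost the threshold in 5 alternatives, among them the fits without KO replicate 1 (adjusted p = 0.0984) or 2 (0.0655) and without WT replicate 1 (0.119) or 3 (0.0761) and the fit of all 12 libraries (0.0503). SDHC did not pass, at 56.3 ± 1.55 and 54.4 ± 3.43 CPM.

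In complex III, 5 of 9 members fell and none rose (edgeR), with a median of -0.10, and 1 rose without KO replicate 3. UQCR10, a small subunit beside cytochrome c1, was at 100.5, 104.0 and 104.4 CPM in WT and at 84.7, 77.9 and 81.5 CPM in KO libraries. It was lower in each KO library than in each WT library (-0.33, SE 0.05, edgeR adjusted p = 9.0e-06). UQCRFS1, the Rieske iron-sulfur protein that accepts electrons from ubiquinol, fell from 97.7 ± 4.84 to 82.6 ± 2.06 CPM (-0.23, SE 0.05), and UQCRH fell from 149 ± 5.00 to 131 ± 2.95 CPM (-0.18, SE 0.04). For UQCRH, 33.4% of 50-base stretches occur elsewhere, and for UQCRFS1 15.5%. Of the core proteins, UQCRC2 fell by 0.10 on the log2 scale and UQCRC1 did not pass (-0.01).

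Complex IV had 2 members lower and 2 higher of 12 tested (16.7% each), beside 28.1% and 29.2% of all genes. The median was 0.02, and 1 was higher without WT replicate 1. COX7A2L was at 73.2, 72.6 and 78.9 CPM in WT and at 86.1, 88.7 and 89.2 CPM in KO libraries. All 3 KO libraries were above all WT libraries (0.25, SE 0.05, edgeR adjusted p = 3.3e-04). COX7C, a small structural subunit, rose from 95.0 ± 3.95 to 106 ± 3.96 CPM (0.17, SE 0.05), and it was the member of the 4 that did not keep its rise in all alternatives. COX7B fell from 96.8 ± 6.79 to 82.1 ± 2.80 CPM (-0.23, SE 0.05), and COX8A from 111 ± 8.03 to 95.3 ± 5.26 CPM (-0.20, SE 0.06). COX4I1, the largest of its nuclear subunits, was at 333 ± 9.55 and 334 ± 15.3 CPM (0.02, SE 0.04). These counts follow the symbols. They include COX7A2L, a factor of supercomplexes, and leave out NDUFA4, which fell and stayed lower in all 13 alternative fits. Whether complex IV differed from the other complexes was not tested.

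In complex V, 12 of 17 tested members fell and none rose (edgeR), with a median of -0.15, and 1 rose without KO replicate 1 or without WT replicate 3. They came from each sector of the enzyme. Of the F1 head and central stalk, 4 of 5 genes fell, ATP5B from 972 ± 9.58 to 840 ± 8.49 CPM (-0.20, SE 0.03), while ATP5D did not pass (0.02). Of the peripheral stalk, which holds the head in place, 3 of 4 fell. ATP5J, coupling factor 6 of that stalk, was at 111.2, 117.7 and 116.3 CPM in WT and at 88.2, 85.3 and 83.6 CPM in KO libraries. The KO libraries were all lower and lay close together (-0.42, SE 0.05, edgeR adjusted p = 3.0e-07), with GABPA antisense to 37.3% of the exon bases.

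ATP5J2, the f subunit of the membrane sector, fell from 93.3 ± 4.25 to 72.1 ± 3.37 CPM (-0.36, SE 0.05, edgeR adjusted p = 8.4e-06). ATP5SL, a complex I assembly factor despite its symbol, had the lowest fold change of all members, from 78.5 ± 3.28 to 56.8 ± 3.45 CPM (-0.45, SE 0.06, edgeR adjusted p = 1.1e-06). The c ring, which turns with proton flow, is made of 1 protein encoded by 3 genes. ATP5G1 and ATP5G3 fell (-0.18 and -0.15) and ATP5G2 did not pass (0.11, SE 0.06).

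The second comparison, of KO with WT U-87 MG cells, gave more rises than falls among the members. Of 78 tested, 14 fell and 26 rose at the adjusted p (edgeR), beside 30.2% and 29.0% of all genes tested that fell and rose. The median log2 fold change was 0.05 over the members and 0.01 over all genes. At 1.5-fold, 2 members fell, NDUFA6 and UQCR10, and none rose, beside 8.15% and 8.06% of all genes. Libraries did not overlap for 13 lower and 29 higher members, beside 31.8% and 32.0% of all genes. The share of counts in the members was 1.02 ± 0.0168% in KO and 0.960 ± 0.0473% in WT libraries (SD, n = 3).

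The counts leaned on single libraries. Without WT replicate 3, 24 members fell and 29 rose and the median was 0.002. Without WT replicate 1, 9 fell and 26 rose with a median of 0.074. The rises were fewest without a KO library, with 20 without KO replicate 2 and 19 without KO replicate 3. Of the 14 and 26, 9 and 17 kept their direction and threshold in all 13 alternative fits. The share of members that rose, 33.3%, is near that of all genes. The share that fell, 17.9%, is below it, and was 30.8% without WT replicate 3.

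The members on chromosome 22 gave the largest falls. NDUFA6, an accessory subunit of complex I that binds the acyl carrier protein, was at 86.3, 86.1 and 87.6 CPM in WT and at 41.4, 45.8 and 44.4 CPM in KO libraries. The KO libraries lay at 50.6% of the WT mean (log2 fold change -0.99, SE 0.05, edgeR adjusted p = 7.1e-13). UQCR10 was at 101.6, 103.2 and 107.3 CPM in WT and at 59.7, 56.1 and 60.2 CPM in KO libraries, or 56.4% of the WT mean, with no overlap (-0.83, SE 0.05, edgeR adjusted p = 3.9e-12).

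Both genes moved with the rest of their chromosome. Of 296 tested genes on chromosome 22, 262 (88.5%) fell and 7 rose in U-87 MG, with a median of -0.97. In HCT116, 96 of 339 (28.3%) fell, with a median of -0.01. Of the 5 nearest counted genes on each side of NDUFA6, 9 of 10 fell in U-87 MG with a median of -1.06, and of those around UQCR10 9 of 10 fell with a median of -0.94. NDUFB1 and ATP5S lie on chromosome 14, where 330 of 440 tested genes (75%) fell in U-87 MG with a median of -0.47, against 122 of 435 (28.0%) and 0.02 in HCT116. Off chromosomes 14 and 22, 10 members fell and 26 rose of 74 tested, with a median of 0.06. The DNA of these cells was not analysed here, and the part of the chromosomes in the members' values was not tested.

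In complex I, 13 of 38 tested members (34.2%) rose and 5 (13.2%) fell in U-87 MG, beside 29.0% and 30.2% of all genes. The members' median was 0.04. The falls rest on single libraries, with 9 (median 0.000) without WT replicate 3, 1 (median 0.076) without WT replicate 1, 3 without KO replicate 1, 2 without KO replicate 2 and 3 without KO replicate 3, and NDUFS1 and NDUFA5 were among those that did not keep the threshold in all 13 alternatives. None of the 7 core subunits rose, and NDUFS1 fell by 0.13 on the log2 scale. All rises were outside the core, of accessory subunits and of NDUFA4, which is counted with complex I by its symbol only. The core was set apart after the values were seen, and whether it differed from the other members was not tested. NDUFA13, an accessory subunit also known as GRIM-19, was at 108, 116 and 104 CPM in WT and at 148, 150.1 and 152 CPM in KO libraries. The groups were well apart (0.45, SE 0.05, edgeR adjusted p = 2.1e-08). NDUFA1, a small subunit encoded on the X chromosome, rose from 59.6 ± 2.56 to 81.4 ± 1.02 CPM (0.45, SE 0.05, edgeR adjusted p = 1.3e-07). NDUFB11, on the X chromosome too, rose from 60.5 ± 1.89 to 79.6 ± 4.36 CPM (0.39, SE 0.06).

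Of complex II, SDHB alone passed with all libraries, from 151 ± 5.33 to 131 ± 5.07 CPM (-0.20, SE 0.05, edgeR adjusted p = 7.2e-04). Without WT replicate 3, 3 of the 4 members fell, and without WT replicate 1, 1 fell and 1 rose. In complex III, 4 of 8 tested members (50%) rose and 2 (25%) fell, beside 29.0% and 30.2% of all genes. Without WT replicate 3, 5 members of complex III rose and 3 fell. UQCR11, a small subunit, rose from 98.2 ± 9.36 to 127 ± 9.77 CPM (0.36, SE 0.07) and UQCRB, which contributes to the ubiquinone-binding region, from 177 ± 11.5 to 205 ± 6.73 CPM (0.21, SE 0.05). UQCRC1 fell from 299 ± 18.6 to 260 ± 15.7 CPM (-0.20, SE 0.05), beside UQCR10.

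Complex IV had the highest median of the 5 complexes in U-87 MG, 0.22, with 5 of 11 tested members higher and none lower (edgeR). Those shares, 45.5% and 0%, stand beside 29.0% and 30.2% of all genes. COX8A, a small structural subunit whose promoter is printed above, was at 207, 201 and 179 CPM in WT and at 229, 235 and 249 CPM in KO libraries. Its WT replicate 3 was the lowest, and the groups did not overlap (0.28, SE 0.05, edgeR adjusted p = 7.2e-05). COX7A2L rose from 128 ± 2.99 to 149 ± 2.26 CPM (0.22, SE 0.04), COX6A1 from 150 ± 9.14 to 176 ± 6.13 CPM (0.23, SE 0.05) and COX6C from 77.3 ± 10.9 to 106 ± 4.29 CPM (0.44, SE 0.09). Without WT replicate 3, 7 members of complex IV rose and 2 fell, with a median of 0.17.

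COX7C, another small subunit, was at 217, 218 and 148 CPM in WT and at 250.2, 243 and 255 CPM in KO libraries, so WT replicate 3 lay far below the others, and the difference did not pass (0.36, SE 0.17, edgeR adjusted p = 0.148).

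In complex V, 6 of 17 tested members (35.3%) fell and 4 (23.5%) rose, beside 30.2% and 29.0% of all genes. The members' median was 0.01. Without WT replicate 3, 7 fell and 4 rose (median -0.025), and 2 rose without KO replicate 2 or without KO replicate 3. ATP5F1, the b subunit of the peripheral stalk, was at 410, 396 and 366 CPM in WT and at 276, 267 and 279 CPM in KO libraries. All KO libraries were lower, by more than the spread of either group (-0.51, SE 0.04, edgeR adjusted p = 7.7e-10), and 9.50% of its 50-base stretches occur elsewhere. ATP5G1 fell from 133 ± 6.64 to 106 ± 2.28 CPM (-0.33, SE 0.05, edgeR adjusted p = 3.0e-06) and ATP5G2 from 203 ± 3.29 to 183 ± 8.03 CPM (-0.15, SE 0.04). The third c-ring gene, ATP5G3, was at 262 ± 33.0 and 267 ± 2.52 CPM (0.02, SE 0.08). ATP5E rose from 163 ± 11.6 to 197 ± 7.03 CPM (0.27, SE 0.05, edgeR adjusted p = 6.9e-05), and did not pass in limma on log2(FPKM + 1) (adjusted p = 0.0619).

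**Figure D3:**
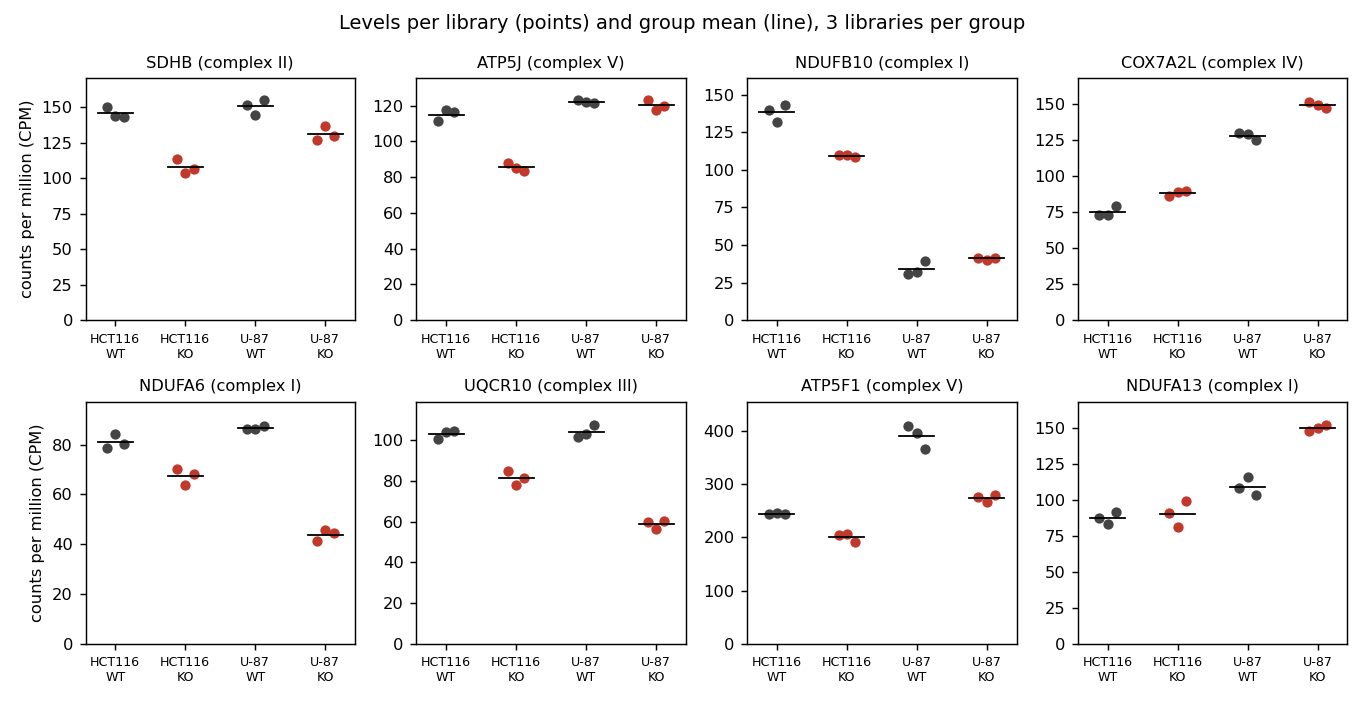
CPM of 8 members in each of the 12 libraries (points, WT dark and KO red) with the mean of each group as a line, on axes that start at 0. SDHB, ATP5J and NDUFB10 are lower in HCT116 KO libraries, NDUFA6 and UQCR10 fall further in U-87 MG (to 43.9 and 58.7 CPM) than in HCT116 (to 67.4 and 81.4 CPM), and COX7A2L is higher in the KO libraries of both lines.

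The KO effect of the lines was then compared in a single fit of all 12 libraries. Of 80 tested members, 37 had a lower KO effect in HCT116 than in U-87 MG and 6 a higher effect at the adjusted p (edgeR), beside 20.5% and 21.4% of all genes. The median of this difference, with U-87 MG subtracted from HCT116, was -0.19 over the members and -0.01 over all genes. At 1.5-fold, 1 member was lower and 2 were higher, beside 7.24% and 9.66% of all genes. Of the 45 members that fell in HCT116, 12 (26.7%) rose, 9 (20%) fell and 24 did not pass in U-87 MG. Over all genes, 572 (14.5%) of the 3950 that fell in HCT116 rose in U-87 MG and 1751 (44.3%) fell, and the difference between these shares was not tested. The 9 are 9 of the 14 that fell in U-87 MG, and the 12 are 12 of the 26 that rose there.

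The 12 with opposite directions were ATP5B, ATP5E, ATP5J2, ATP5L, COX8A, NDUFA4, NDUFA8, NDUFB9, NDUFB10, NDUFC1, UQCRH and UQCRQ, and the difference itself passed the adjusted p in all 12. They were picked by passing in opposite directions in the same libraries, so the test of the difference adds no support. Of the 12, 4 (COX8A, NDUFB10, NDUFC1 and UQCRH) kept direction and threshold in both lines in every alternative fit. The 9 that fell in both were ATP5F1, ATP5G1, ATP5O, ATP5SL, NDUFA5, NDUFA6, NDUFS1, SDHB and UQCR10, of which 6 kept this in every alternative (not ATP5O, NDUFA5 or NDUFS1). COX7A2L and NDUFC2 rose in both lines. NDUFB10 gave a difference of -0.59 (SE 0.09, edgeR adjusted p = 1.8e-06), since in U-87 MG it rose from 34.0 ± 4.61 to 41.0 ± 0.652 CPM. ATP5J2 (-0.54), ATP5E (-0.52) and NDUFA1 (-0.51) were the next members by p with a lower effect in HCT116.

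The opposite difference was led by the chromosome 22 genes. It was 0.74 for NDUFA6 (SE 0.08, edgeR adjusted p = 2.0e-09) and 0.51 for UQCR10 (SE 0.07, edgeR adjusted p = 4.4e-07). The latter stays under 1.5-fold. ATP5S, on chromosome 14, differed by 0.64 (SE 0.22, edgeR adjusted p = 0.018) at low levels, 2.67 ± 0.294 and 3.21 ± 0.577 CPM in WT and KO HCT116 against 6.31 ± 0.508 and 4.85 ± 0.304 CPM in U-87 MG. It lost the threshold without HCT116 KO replicate 2 (adjusted p = 0.0671) or WT replicate 1 (0.0572). CDKL1 lies antisense to part of its exons (41.8% of its exon bases). SDHB fell in both lines, and further in HCT116 (difference -0.21, SE 0.07, edgeR adjusted p = 0.0096).

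The WT cells of the lines were compared last. HCT116 was sequenced in single reads and U-87 MG in read pairs, so the line and the kind of read cannot be told apart. Of 80 tested members, 52 were lower in HCT116 and 18 higher at the adjusted p (edgeR), beside 43.7% and 43.7% of all genes. Libraries did not overlap for 51 lower and 19 higher members, beside 43.1% and 44.3% of all genes. At 1.5-fold, 26 were lower and 8 higher, beside 26.3% and 24.9%, and the members' median log2 difference, HCT116 over U-87 MG, was -0.30 against 0.004 for all genes. The share called, 34 of 80, is not above that of all genes (51.2%).

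In complex I, 13 of 38 tested members were called lower in HCT116 and 2 higher. NDUFB2, a membrane-arm subunit, was at 28.9, 29.0 and 30.7 CPM in HCT116 WT and at 141, 139 and 107 CPM in U-87 MG WT. It had the largest difference downward (-2.15, SE 0.09, edgeR adjusted p = 3.9e-13), and BRAF lies antisense to part of its exons (35.1% of exon bases). NDUFB10 was the largest upward, at 140, 132 and 143 CPM against 30.8, 32.0 and 39.3 CPM (2.01, SE 0.06, edgeR adjusted p = 4.6e-24). The groups were far apart for both genes, which serve the same arm of complex I. NDUFB1 (-1.75), NDUFB6 (-1.45), NDUFS8 (-1.37), NDUFA2 (-1.36), NDUFA4 (-1.30), NDUFA4L2 (-1.23), NDUFV1 (-0.91), NDUFS1 (-0.72), NDUFA5 (-0.70), NDUFS7 (-0.70), NDUFB7 (-0.63) and NDUFB4 (-0.59) were the others called lower, and NDUFB9 (0.90) was the other called higher.

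In complex II, SDHA was at 169, 159 and 168 CPM in HCT116 WT and at 69.8, 72.2 and 62.9 CPM in U-87 MG WT. It was higher in HCT116 without overlap (1.25, SE 0.05, edgeR adjusted p = 5.2e-21), as was SDHD (0.75, SE 0.06), while SDHB, their partner, did not pass (-0.07, SE 0.05). In complex III, UQCRQ (-0.86) and UQCRC1 (-0.69) were lower and UQCRB (0.65) and UQCRHL (1.46, SE 0.48) higher. The UQCRHL value rests on 50 and 16 counts, the gene could pass the count filter through HCT116 alone, and its FPKM were 41.2 and 34.0. In complex IV, 6 members were called lower and none higher (edgeR): COX7C (-1.05), COX8A (-0.84), COX7A2L (-0.79), COX7B (-0.71), COX6B1 (-0.64) and COX6A1 (-0.60).

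In complex V, 5 members were called lower, ATP5S (-1.25), ATP5E (-1.17), ATP5O (-0.89), ATP5G2 (-0.75) and ATP5F1 (-0.70). ATP5D (0.62) and ATP5A1 (0.60), a partner of ATP5B in the catalytic head, were higher. ATP5E was at 72.2, 73.1 and 74.8 CPM in HCT116 and at 171, 168 and 149 CPM in U-87 MG, with no overlap (SE 0.06, edgeR adjusted p = 5.8e-19).

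**Figure D4:**
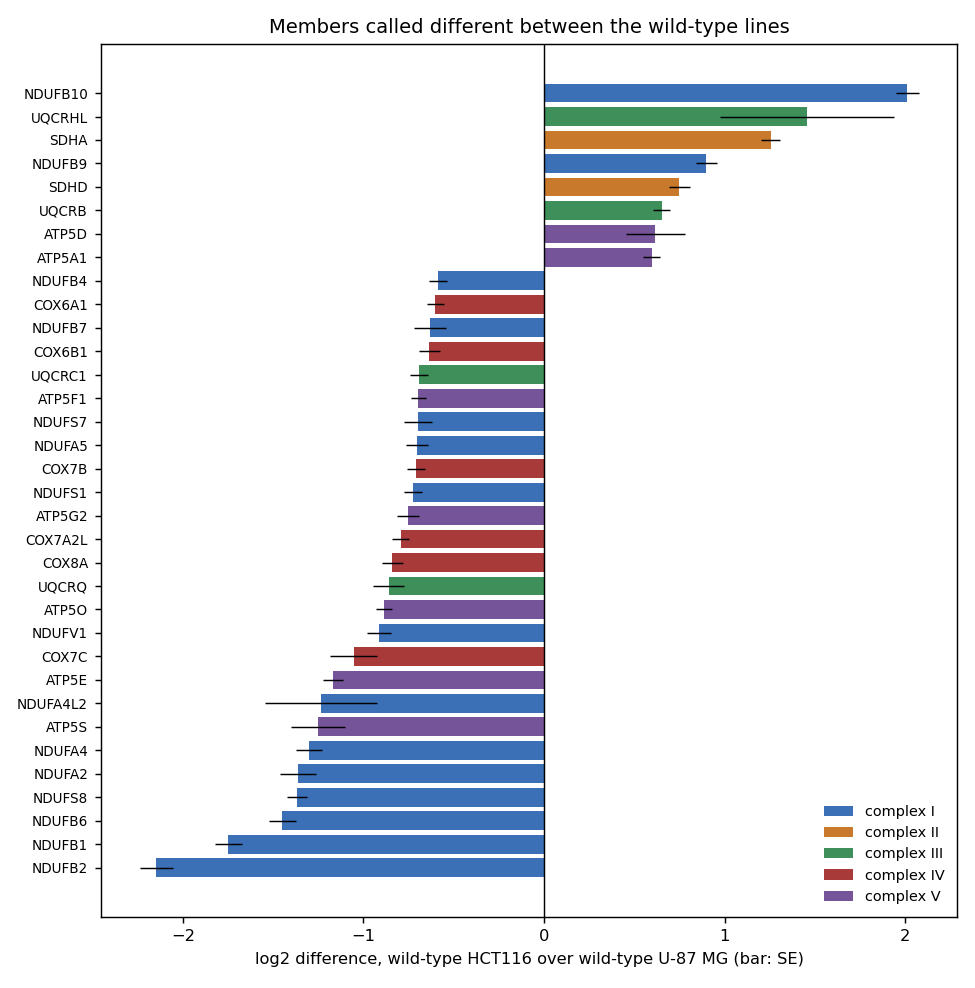
Log2 difference between WT HCT116 and WT U-87 MG (bars, with the standard error as a line) for the 34 members called different, coloured by complex. NDUFB10 at 2.01 and NDUFB2 at -2.15, both subunits of complex I, mark the ends of the range.

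Other genes of mitochondrial respiration were counted in lists made from textbook knowledge. In HCT116 they mostly fell, beside 28.1% of all genes tested that fell and 29.2% that rose. Of 6 partners outside the symbol rule, such as cytochrome c, cytochrome c1 and the acyl carrier protein, 5 fell with a median of -0.23, CYCS (cytochrome c) from 251 ± 8.68 to 197 ± 17.4 CPM and NDUFAB1 (the carrier protein) from 89.9 ± 3.11 to 68.8 ± 1.15 CPM. Of 48 assembly factors, 29 (60.4%) fell and 4 (8.33%) rose (median -0.25). NDUFAF2 and TMEM126B, both for complex I, fell (-0.51 and -0.51), and TTC19, which serves complex III, rose (0.64, SE 0.05).

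Of 78 mitochondrial ribosomal proteins, which translate the subunits encoded by mitochondrial DNA, 67 (85.9%) fell and none rose (edgeR), with a median of -0.30. The shares of all genes beside these lists are again 28.1% lower and 29.2% higher. MRPL37 fell furthest, from 177 ± 0.819 to 73.9 ± 1.18 CPM (-1.25, SE 0.04, edgeR adjusted p = 7.9e-15), while MRPL3 (-0.58) and MRPL18 (-0.59) fell less. Among 17 genes of the citric acid cycle and pyruvate dehydrogenase, 11 fell and 1 rose (median -0.15), or 0 rose without WT replicate 1. FH (fumarase) fell from 75.5 ± 0.545 to 49.6 ± 1.65 CPM (-0.59, SE 0.05) and CS (citrate synthase) by 0.31 on the log2 scale. Of 13 tested regulators of mitochondrial gene expression 10 fell (median -0.22), among them TFAM, which packages mitochondrial DNA (-0.22, SE 0.05), and PPARGC1B, a coactivator of such genes (-0.31, SE 0.06).

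In U-87 MG the same lists divided, beside 30.2% of all genes that fell and 29.0% that rose. Assembly factors fell in 11 (22.9%) and rose in 10 (20.8%) of 48 (median 0.07), both below the shares of all genes, with NUBPL (-0.82, on chromosome 14) lower and COX14 (0.91) higher. Their median was 0.017 without WT replicate 3, and 7 fell without WT replicate 2. Mitochondrial ribosomal proteins fell in 28 (35.9%) and rose in 12 (15.4%) of 78 (median -0.08), with MRPL40, on chromosome 22, at -1.14 and MRPS6 at 0.52. Genes of the citric acid cycle and pyruvate dehydrogenase fell in 11 of 17 (64.7%) and rose in none (edgeR; median -0.20), with DLST, on chromosome 14, at -0.51. Regulators fell in 7 and rose in 3 of 14 (median -0.22): POLRMT, the mitochondrial RNA polymerase, and PPARGC1B fell (-0.61 and -0.98), and PPARGC1A rose (0.78, SE 0.10). Of the partners, 2 fell and 2 rose, CYC1 from 214 ± 11.8 to 151 ± 9.28 CPM and NDUFAB1 in the other direction from 54.9 ± 3.85 to 69.0 ± 1.16 CPM. Without WT replicate 3, the falls numbered 31 among mitochondrial ribosomal proteins, 13 in the citric acid cycle list, 8 among regulators, 3 among partners (median -0.08) and 3 among the hypoxia-induced genes described next.

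Hypoxia-induced genes, to which NDUFA4L2 is related by its known regulation, did not share a direction. In HCT116, 3 of 9 (33.3%) rose and 2 (22.2%) fell, near the shares of all genes (29.2% and 28.1%). NDRG1 rose from 59.9 ± 0.898 to 137 ± 4.01 CPM, and the glucose transporter SLC2A1 fell from 96.6 ± 2.93 to 47.6 ± 1.16 CPM. In U-87 MG, 5 of 10 (50%) rose and 2 (20%) fell, beside 29.0% and 30.2% of all genes. ADM (1.06, SE 0.06) and SLC2A1 (0.38, SE 0.05) were among those that rose.

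**Figure D5:**
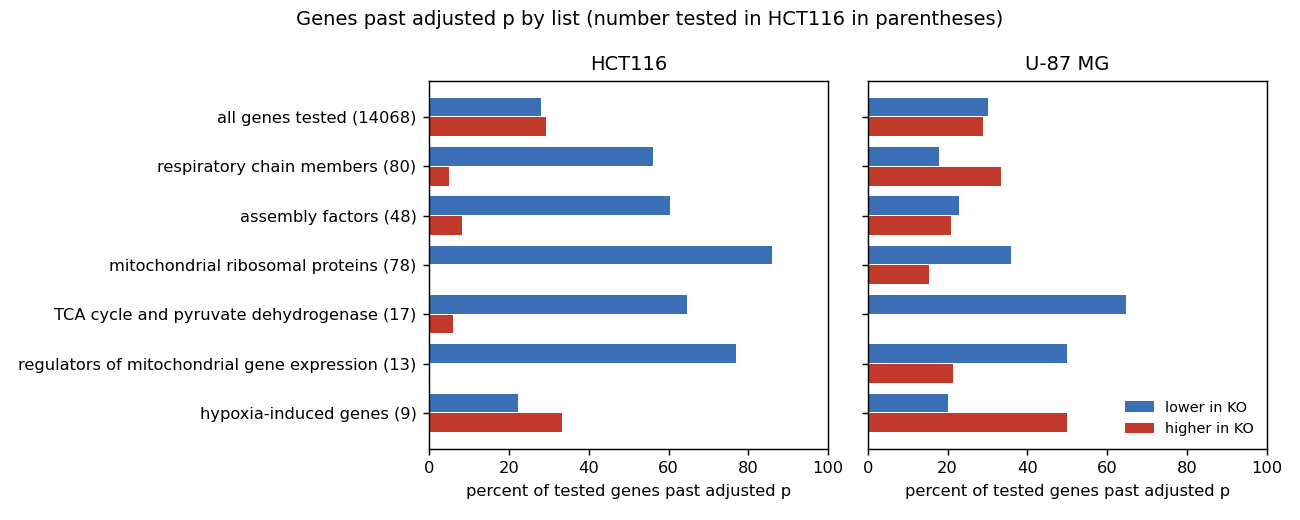
Percent of tested genes in each list that passed the adjusted p with lower (blue) or higher (red) levels in KO cells, for HCT116 (left) and U-87 MG (right), with all genes tested as the top row. In HCT116, 85.9% of mitochondrial ribosomal proteins and 56.2% of the respiratory chain members were lower, beside 28.1% of all genes, and in U-87 MG 35.9% and 17.9% were, beside 30.2%.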

How the data were processed

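RNA-seq counts and FPKM of 12 libraries were used, with reads of 50 bp. The deposited counts, whole numbers for each gene symbol, were made by the authors with featureCounts 1.6.1 after alignment to GRCh38 with STAR 2.5.2, per the submitters' processing notes. For the deposited FPKM values, the authors used Cufflinks 2.2.1, per the submitters' processing notes. Here, edgeR 4.0.16 (R 4.3.3) fitted all genes kept by filterByExpr with TMM factors and a robust quasi-likelihood F-test, in the 6 libraries of a line or, between lines, in all 12. CPM were TMM-scaled over all 12 libraries, and SE is the absolute log2 fold change over the square root of F. A call needed a mean FPKM above 0.5, a change of more than 1.5-fold and an adjusted p below 0.05. On simulated counts of 14068 genes, edgeR passed 82% of genes changed 1.5-fold in HCT116 and 12 of 13868 unchanged genes. Few genes were changed there and none by less than 1.5-fold, so changes as small as those of most members are not covered. Alternatives were DESeq2 1.42.0, RLE factors, no filter, limma 3.58.1 on log2(FPKM + 1) or log2(FPKM + 0.1), a replicate block, a joint fit and leaving out each library. Gene positions came from GENCODE release 44 and promoters from RefSeq. Named genes were those called, up to 3 per complex and line by adjusted p without library overlap, the highest and lowest by FPKM, paralogue sets, the 6 lowest p between lines, chromosome 22 members and up to 3 per other list. The members, lists and rule were chosen with earlier results of these data known, and functional groups within complexes and chromosome 14 after the values were seen. A few genes of these lists are not reported here.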

Additional observations from a re-analysis of the deposited data

Results flagged for a closer look

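The KO effect of 3 of 80 tested members was called different between the lines. The test was that of the difference itself (edgeR, adjusted p under 0.05 and over 1.5-fold). The effect in HCT116 was lower for 1 and higher for 2, beside 7.24% and 9.66% of all genes. In log2 units, the effect in HCT116 less that in U-87 MG was 0.64 for ATP5S, 0.74 for NDUFA6 and -0.59 for NDUFB10. The 3 were not called in every fit that left out a library: without HCT116 KO replicate 1, 1 call (NDUFA6) was left, and ATP5S lost the threshold without HCT116 KO replicate 2 (adjusted p = 0.0671) or WT replicate 1 (0.0572). NDUFB10 kept the threshold in these fits, but fell under 1.5-fold in some, as without HCT116 KO replicate 1 (-0.584). NDUFA6 fell in both lines, to 83.1% of the WT mean in HCT116 and 50.6% in U-87 MG. NDUFB10 fell to 79.1% in HCT116 and rose to 120.5% in U-87 MG. ATP5S stood at 120.3% in HCT116, where it did not pass, and at 76.9% in U-87 MG. NDUFA6 lies on chromosome 22 and ATP5S on chromosome 14. The medians of all genes tested there in U-87 MG were -0.97 and -0.47, and the part of the chromosomes was not tested.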

How the results depend on the processing

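For the members that the naming rule gave in each comparison, 901 of 911 values kept direction and threshold, and 10 lost the threshold, for SDHA in HCT116, ATP5E in U-87 MG, ATP5S between lines (adjusted p = 0.0671 without HCT116 KO replicate 2 and 0.0572 without HCT116 WT replicate 1) and UQCRHL between WT lines (0.0526 without HCT116 WT replicate 3). Over every member past the adjusted p, others named in the text lost it too: 11 of 49 did so in at least 1 alternative in HCT116 (COX7C, NDUFS3 and UQCRC2 among them), 14 of 40 in U-87 MG (NDUFS1, NDUFA5, ATP5B and ATP5J2 among them), 10 of 43 between lines and 7 of 70 between WT lines. No value reversed except those of ATP5J and NDUFA6 between WT lines, on both FPKM scales. The HCT116 median of members was -0.168 with DESeq2 and -0.168 without the count filter (all genes 0.025 and 0.021), -0.209 on log2(FPKM + 1) and -0.213 on log2(FPKM + 0.1) (all genes -0.052 and -0.060). On log2(FPKM + 1), 0 members were called in HCT116 by limma, against 1 by edgeR. The U-87 MG median was 0.086 and 0.087 on the FPKM scales. Members called between lines, 3 with edgeR, numbered 6 on log2(FPKM + 1) and 9 on log2(FPKM + 0.1), 1 (NDUFA6) without HCT116 KO replicate 1 and 5 without U-87 MG KO replicate 1.

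Leaving out each library in turn gave 39 to 50 lower and 3 to 5 higher members in HCT116 with a median of -0.158 to -0.139, and 1 call throughout. In U-87 MG it gave 9 to 24 lower and 19 to 29 higher with a median of 0.002 to 0.074, and 2 calls throughout. Calls ranged from 1 to 5 between lines and from 32 to 34 between WT lines. In HCT116, deviations of same-numbered KO and WT libraries correlated at 0.007 to 0.094, and those of differently numbered ones at -0.067 to 0.039. In U-87 MG the ranges were -0.037 to 0.002 and -0.030 to 0.044. Whether the replicate numbers pair libraries is not settled by these values. With the replicate block, 52 members fell and 6 rose in HCT116 (1 called, median -0.154), 14 fell and 26 rose in U-87 MG (2 called, median 0.053), and 3 and 35 were called between lines and between WT lines. For the counts of 0 members or list genes past the adjusted p (complexes III and V and mitochondrial ribosomal proteins among rises in HCT116, and in U-87 MG complex IV among falls and core subunits and the citric acid cycle list among rises), edgeR at an unadjusted p under 0.05 and DESeq2 also gave 0. Depth limits members with few counts, such as NDUFA4L2 (41 in HCT116 WT), UQCRHL (16 in U-87 MG WT), COX6B2 (0 in both U-87 MG groups) and ATP5L2 (1 to 8 per group, not tested).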
